A study of Homo sapiens with 15 samples.

Results

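ATOH1 and 7 other genes of secretory epithelium (HEPACAM2, REG4, TFF1, TFF3, AGR2, AGR3 and SPINK1) were followed across 15 expression arrays of VCaP cells. The 8 genes were taken by symbol from the platform annotation, which assigned them 12 of the 47322 probes on the array, and 11 of these 12 passed the detection filter. All 8 genes were therefore among the 12744 genes tested. They were chosen by their measured response to ERG siRNA, so that response is given below as a description without a test.

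VCaP is a prostate cancer cell line that carries the TMPRSS2-ERG fusion, which places the ETS transcription factor ERG under an androgen-driven promoter. Cells were grown in DMEM with serum, and RNA was profiled on Illumina HumanHT-12 v4 BeadChips in 5 groups of 3 arrays. The groups were ERG siRNA 1 and ERG siRNA 2, each taken 72 h after transfection, a non-targeting siRNA, WP1130, a small-molecule inhibitor of deubiquitinating enzymes, taken after 24 h, and DMSO. Neither the dose of WP1130 nor a time for the non-targeting and DMSO groups was stated in the labels. All groups share the fusion and come from this cell line alone, and the labels do not say whether replicates were separate cultures, so p-values cover only the variation among these arrays, part or all of which may be technical.

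ATOH1 is a basic helix-loop-helix transcription factor that commits progenitors of the intestine to the secretory fate, and Notch signalling through HES1 holds it down in neighbouring cells. The other 7 genes are known from mucus-secreting and related epithelium: trefoil factors TFF1 and TFF3 are secreted with mucins, REG4 is a secreted C-type lectin, AGR2 and AGR3 are protein disulfide isomerases of the endoplasmic reticulum, HEPACAM2 is a membrane protein of the immunoglobulin family, and SPINK1 is a secreted trypsin inhibitor. SPINK1 is also known from a class of prostate tumours that mostly lack an ERG fusion.

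The 250 bases before the annotated start were read from RefSeq's promoter table (GRCh38.p14) for 6 of the 8 genes, which did not include TFF1 and TFF3. Those of ATOH1 (chr4:93828503-93828752, plus strand) and HEPACAM2 (its first listed start, chr7:93232199-93232448, minus strand) are shown because these genes had their highest levels under ERG siRNA. Those of REG4 (chr1:119811461-119811710), AGR2 (chr7:16805000-16805249) and AGR3 (chr7:16881984-16882233), all on the minus strand, are shown because these genes were lower under ERG siRNA. Each is written 5′ to 3′ and ends at the base before the start. Capitals mark the E-box CAGCTG. They also mark GGAAG, a core that ETS factors bind, and the TATA box TATAAA. All were searched on both strands.
ATOH1: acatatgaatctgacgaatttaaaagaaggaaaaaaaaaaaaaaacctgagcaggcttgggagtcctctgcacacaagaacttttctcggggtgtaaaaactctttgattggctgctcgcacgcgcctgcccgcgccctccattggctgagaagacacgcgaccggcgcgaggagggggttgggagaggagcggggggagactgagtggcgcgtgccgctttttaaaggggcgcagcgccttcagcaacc
HEPACAM2: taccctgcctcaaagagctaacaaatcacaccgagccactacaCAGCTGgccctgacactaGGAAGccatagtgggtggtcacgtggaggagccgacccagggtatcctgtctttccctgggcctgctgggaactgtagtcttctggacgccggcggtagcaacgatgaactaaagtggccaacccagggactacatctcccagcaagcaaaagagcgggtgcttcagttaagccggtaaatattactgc
REG4: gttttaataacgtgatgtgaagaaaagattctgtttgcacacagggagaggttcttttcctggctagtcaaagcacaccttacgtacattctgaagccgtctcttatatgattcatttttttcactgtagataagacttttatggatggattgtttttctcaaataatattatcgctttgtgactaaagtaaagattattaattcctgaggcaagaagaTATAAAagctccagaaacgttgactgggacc
AGR2: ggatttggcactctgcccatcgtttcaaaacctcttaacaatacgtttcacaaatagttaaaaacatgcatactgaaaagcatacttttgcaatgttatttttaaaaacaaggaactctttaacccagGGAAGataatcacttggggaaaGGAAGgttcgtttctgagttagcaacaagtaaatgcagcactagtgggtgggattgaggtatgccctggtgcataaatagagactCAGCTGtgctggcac
AGR3: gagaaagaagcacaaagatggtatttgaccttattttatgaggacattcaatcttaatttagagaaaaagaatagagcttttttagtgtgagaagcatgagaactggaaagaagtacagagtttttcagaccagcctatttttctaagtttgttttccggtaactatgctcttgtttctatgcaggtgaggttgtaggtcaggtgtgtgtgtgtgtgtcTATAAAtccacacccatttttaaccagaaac

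HEPACAM2 held CAGCTG and GGAAG, with 201 and 184 bases between the match and the start. AGR2 held CAGCTG at 9 bases and GGAAG at 117 and 95 bases before its start. REG4 and AGR3 each held TATAAA at the same distance of 25 bases. No match overlapped another, and none of these letters stood in the windows of ATOH1, of SPINK1 or of the second HEPACAM2 start. The longer core CCGGAAG stood in none of the 7 windows. Among 35116 promoter windows of the same length, CAGCTG stood in 14%, GGAAG in 65.1%, CCGGAAG in 8.52% and TATAAA in 10.7%. A match describes letters only and does not show binding.

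On the arrays, ERG itself averaged 5.30 ± 0.41 with ERG siRNA 1, 5.22 ± 0.39 with ERG siRNA 2 and 6.001 ± 0.149 with the non-targeting siRNA (normalised log2 intensity, SD, n = 3 each). Its level with ERG siRNA ranged between 4.81 and 5.76 and did not reach the lowest non-targeting array, at 5.84. The mean of both siRNAs fell by 0.74 ± 0.16 on the log2 scale (SE, limma adjusted p = 0.00383). ERG also fell with WP1130, to a mean of 5.76 against 6.30 with DMSO (-0.54 ± 0.18, SE, limma adjusted p = 0.0203), but missed the threshold in the values the authors had processed (adjusted p = 0.0853). WP1130 arrays had a lower mean intensity over all probes (311 ± 5.21) than DMSO arrays (417 ± 19.4; SD, n = 3 each). Each array detected between 18460 and 21220 probes at a detection p under 0.05, with background medians of 98.2 to 111 intensity units, and 0 pairs of arrays held identical values. Of 14 prostate luminal markers on the array, 12 were detected on all 15 arrays, while of 7 basal markers on the array 2 (ITGA6 and CD44) were detected on all 15 and 3 keratins (KRT5, KRT14 and KRT15) on 0 arrays. With ERG siRNA, CD44 rose by 0.34 ± 0.07 and ITGA6 fell by 0.45 ± 0.12, and with WP1130 CD44 fell by 0.34 ± 0.08. RNA came from bulk cultures, so fewer cells of a type and less RNA per cell cannot be told apart.

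The 8 genes did not move as a single block in either treatment. With ERG siRNA, 5 were higher (ATOH1, HEPACAM2, TFF1, TFF3 and SPINK1) and 3 lower (REG4, AGR2 and AGR3) than with the non-targeting siRNA. With WP1130, TFF1, SPINK1, AGR3, AGR2 and REG4 rose, and ATOH1 and HEPACAM2 fell, relative to DMSO, though the rise of REG4 was not called under median scaling and its sign turned with no scaling, and the fall of HEPACAM2 was lost without any single WP1130 array, without DMSO replicate 2 or 3 and without background correction. Only TFF1 and SPINK1 were higher in both comparisons among the genes that passed the WP1130 test, and REG4 was the member that differed most between the DMSO and non-targeting controls.

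**Figure D1:**
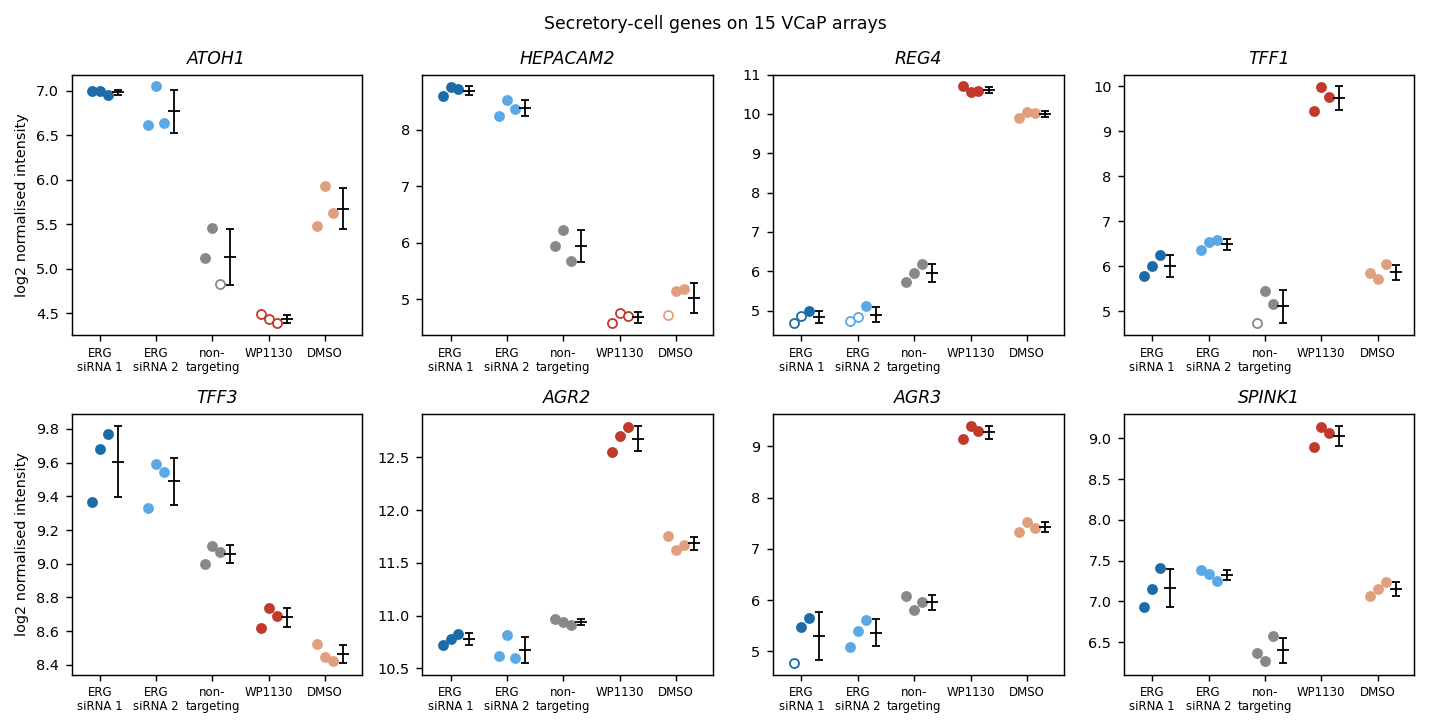
Normalised log2 intensity of each gene (vertical axis, its own range per panel) on each array of 5 groups, with open circles for arrays on which the probe was not detected and bars for the mean ± SD (n = 3). ATOH1 and HEPACAM2 are highest on the 6 ERG siRNA arrays, and TFF1, AGR2, AGR3 and SPINK1 on the 3 WP1130 arrays.

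ATOH1, the transcription factor of the set, read 6.99, 6.998 and 6.94 with ERG siRNA 1 and 6.61, 7.05 and 6.64 with ERG siRNA 2, against 5.12, 5.46 and 4.82 with the non-targeting siRNA. Every ERG siRNA array lay above every non-targeting array, and the third non-targeting array did not detect the probe. The mean over both siRNAs was 1.74 ± 0.13 higher on the log2 scale (SE), or 3.34-fold, which placed ATOH1 at rank 7 from the top of 12744 genes. ERG siRNA 1 alone gave 1.85 ± 0.15 and ERG siRNA 2 alone gave 1.63 ± 0.15, with the same 3 non-targeting arrays as the base of both. These signals were dim: the deposited intensities averaged 234 and 214 units with the siRNAs and 135 with the non-targeting siRNA, not far above the background medians.

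WP1130 went the other way for ATOH1. Its probe read 4.49, 4.43 and 4.39 with WP1130, against 5.48, 5.92 and 5.62 with DMSO. The probe was detected on 0 of 3 WP1130 arrays and on all 3 DMSO arrays, so ATOH1 was at least 1.73-fold lower with WP1130 (limma, adjusted p = 3.88e-06). For this bound, each WP1130 array counted with the dimmest detected signal on it where the ATOH1 probe was dimmer still. The fitted log2 difference was -1.24 ± 0.15 (SE). DMSO arrays in turn lay above non-targeting arrays by 0.54 ± 0.15, a description only, since transfection, time and vehicle cannot be told apart between these controls. The order of the group means for ATOH1 was therefore ERG siRNA 1, ERG siRNA 2, DMSO, non-targeting siRNA and WP1130, and only the arrays of the ERG siRNAs overlapped between neighbours.

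HEPACAM2 had the highest log2 difference of all 12744 genes between the mean of both ERG siRNAs and the non-targeting siRNA. It read 8.60, 8.75 and 8.72 with ERG siRNA 1 and 8.24, 8.53 and 8.38 with ERG siRNA 2, against 5.95, 6.23 and 5.67 with the non-targeting siRNA. The siRNA arrays stood far apart from the controls, by 2.59 ± 0.12 on the log2 scale (SE), or 6.01-fold. A further probe of the gene, ILMN_1804593, gave 2.67 ± 0.10. The remaining HEPACAM2 probe, ILMN_2283772, was detected on 0 of 15 arrays.

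With WP1130, HEPACAM2 read 4.58, 4.76 and 4.71, against 4.73, 5.15 and 5.19 with DMSO. The probe was detected on 0 of 3 WP1130 arrays and on 2 of 3 DMSO arrays, and the lowest DMSO array lay within the WP1130 values. The fall of 0.34 ± 0.14 on the log2 scale was at the edge of the threshold (at least 1.10-fold lower, limma adjusted p = 0.0443). It missed the threshold without DMSO replicate 2 (limma adjusted p = 0.147) or 3 (0.168), without any single WP1130 array (0.0533 to 0.130) and without background correction (0.138). The probe ILMN_1804593, detected on all 3 DMSO and 0 WP1130 arrays, fell by 0.85 ± 0.11 without overlap (at least 1.30-fold lower, limma adjusted p = 1.58e-05 over all probes). For HEPACAM2 the order of means was ERG siRNA 1, ERG siRNA 2, non-targeting siRNA, DMSO and WP1130, with overlap only between DMSO and WP1130.

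**Figure D2:**
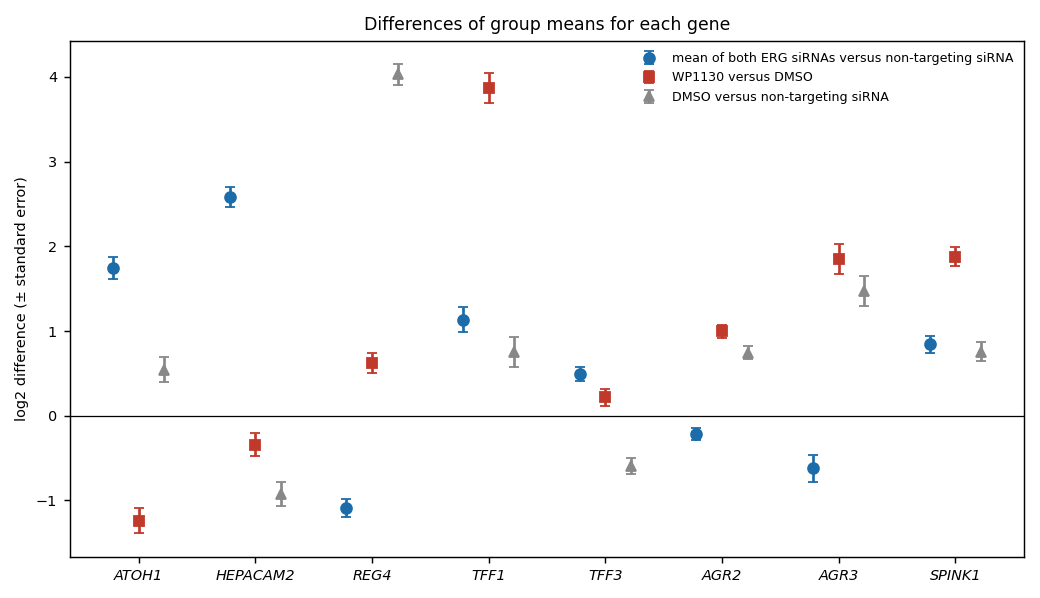
Log2 difference of group means ± SE (vertical axis) for each gene in 3 comparisons: circles for the mean of both ERG siRNAs versus the non-targeting siRNA, squares for WP1130 versus DMSO, and triangles for DMSO versus the non-targeting siRNA, with the same non-targeting arrays under circles and triangles. ATOH1 and HEPACAM2 are above 0 for ERG siRNA and below 0 for WP1130, REG4, AGR2 and AGR3 are the reverse (REG4 at -0.09 for WP1130 if arrays are not scaled), and the highest triangle is that of REG4.

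Among the trefoil factors, small stable peptides of mucous layers, TFF1 was the member that rose most with WP1130. It read 9.46, 9.99 and 9.76 with WP1130, against 5.86, 5.71 and 6.04 with DMSO. The lowest WP1130 array lay more than 3 log2 units above the highest DMSO array, and the difference was 3.87 ± 0.17 (SE), or 14.6-fold (limma adjusted p = 3.99e-11), rank 60 of 12744 from the top. Under knockdown, TFF1 read 5.77, 6.01 and 6.25 with ERG siRNA 1 and 6.36, 6.55 and 6.57 with ERG siRNA 2, against 4.73, 5.46 and 5.16 with the non-targeting siRNA. The probe was undetected on the non-targeting array at 4.73. All 6 siRNA arrays lay above the controls, by 1.13 ± 0.15 on the log2 scale (SE), or 2.20-fold. The ERG siRNA 1 arrays of TFF1 overlapped those of DMSO, whose mean was 0.75 ± 0.17 above that of the non-targeting siRNA.

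TFF3, its neighbour on chromosome 21 with only TFF2 between them among protein-coding genes, moved less. It read 9.37, 9.68 and 9.77 with ERG siRNA 1 and 9.33, 9.59 and 9.55 with ERG siRNA 2, against 8.998, 9.11 and 9.07 with the non-targeting siRNA. The difference of 0.49 ± 0.08 (SE), or 1.41-fold, came with no overlap of the arrays. With WP1130, TFF3 read 8.62, 8.74 and 8.69, against 8.52, 8.45 and 8.42 with DMSO. These arrays did not overlap either, but the difference of 0.22 ± 0.10 (SE) missed the threshold (limma adjusted p = 0.0697), and its direction turned with the scaling between arrays, where it was called as a fall (-0.37, limma adjusted p = 0.00595, with median scaling and -0.56, limma adjusted p = 0.000187, with none). TFF2, the neighbour that lies between them, was detected only on the 3 WP1130 arrays and so passed the filter only through them. Its level there was at least 1.44-fold higher than with DMSO, a description without a test. TMPRSS2, whose promoter drives ERG in the fusion, lies on the same chromosome with 8 protein-coding genes between it and TFF1. It averaged 12.27 ± 0.12 with ERG siRNA 1, 12.43 ± 0.06 with ERG siRNA 2 and 11.03 ± 0.11 with the non-targeting siRNA, and 10.46 ± 0.12 with WP1130 against 10.88 ± 0.08 with DMSO (SD, n = 3 each). TMPRSS2 thus fell with WP1130 (limma adjusted p = 0.000619) where TFF1 rose.

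REG4, the secreted lectin, differed most between the control groups. It read 9.90, 10.04 and 10.03 with DMSO, against 5.74, 5.95 and 6.20 with the non-targeting siRNA. This difference of 4.03 ± 0.12 (SE), or 16.3-fold, was the highest of all 12744 genes between these control groups. The deposited intensities of REG4 averaged 1220 units with DMSO and 163 with the non-targeting siRNA.

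Under knockdown, REG4 read 4.68, 4.86 and 4.99 with ERG siRNA 1 and 4.74, 4.83 and 5.13 with ERG siRNA 2, all below the lowest non-targeting array at 5.74. It was detected on 1 of 3 arrays of each siRNA and on 3 of 3 non-targeting arrays. The mean difference was -1.09 ± 0.10 on the log2 scale (SE), a level 2.13-fold lower, at rank 32 from the bottom of 12744 genes. With WP1130, REG4 read 10.70, 10.56 and 10.58, a rise of 0.62 ± 0.12 over DMSO (limma adjusted p = 0.000369) that did not hold under other scalings (0.10 with median scaling and -0.09 with none). Its deposited intensities averaged 1142 units with WP1130 and 1220 with DMSO, on arrays whose overall intensity was lower with WP1130. Of the 8 genes, REG4 had the widest gap between the WP1130 and DMSO groups on one side and the 3 siRNA groups on the other.

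AGR2, a protein disulfide isomerase that in mouse intestine is needed for the mucin Muc2, rose with WP1130 in each of its probes. Its main probe read 12.55, 12.70 and 12.79 with WP1130, against 11.75, 11.62 and 11.67 with DMSO. The rise was 0.995 ± 0.0801 on the log2 scale (SE), or 1.99-fold (limma adjusted p = 4.69e-08), with no overlap. The further probe, ILMN_1814151, rose by 1.25 ± 0.10 (limma adjusted p = 4.29e-08 over all probes). Under knockdown the main probe read 10.72, 10.78 and 10.83 with ERG siRNA 1 and 10.61, 10.81 and 10.60 with ERG siRNA 2, against 10.97, 10.94 and 10.91 with the non-targeting siRNA. These values were lower by a small amount, with a difference of -0.21 ± 0.07 (SE), while the further probe gave -0.12 ± 0.08 with overlapping arrays. Against the non-targeting siRNA, DMSO was higher by 0.75 ± 0.08 with the main probe and by 1.33 ± 0.10 with the other.

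AGR3, its paralogue, lies next to AGR2 on chromosome 7 with 0 protein-coding genes between them. It read 9.14, 9.39 and 9.29 with WP1130, against 7.32, 7.53 and 7.41 with DMSO. The rise was 1.85 ± 0.18 on the log2 scale (SE), or 3.61-fold (limma adjusted p = 3.96e-07). The dimmer probe ILMN_2050246 was detected on all 3 WP1130 arrays, on 0 DMSO arrays and on 1 further array, of ERG siRNA 1. It thus passed the filter only through the WP1130 arrays. Its level there was at least 1.72-fold higher than with DMSO, a description without a test. Under knockdown, AGR3 read 4.78, 5.46 and 5.65 with ERG siRNA 1 and 5.08, 5.39 and 5.61 with ERG siRNA 2, against 6.09, 5.80 and 5.96 with the non-targeting siRNA. All 6 siRNA arrays lay below the controls, with a difference of -0.62 ± 0.16 (SE), while ILMN_2050246 was near background there and gave -0.03 ± 0.10. DMSO lay 1.47 ± 0.18 above the non-targeting siRNA, rank 14 of 12744 for these controls. AGR2, AGR3 and REG4 shared 1 order of group means: WP1130, DMSO, non-targeting siRNA and then the ERG siRNAs, whose arrays overlapped each other.

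**Figure D3:**
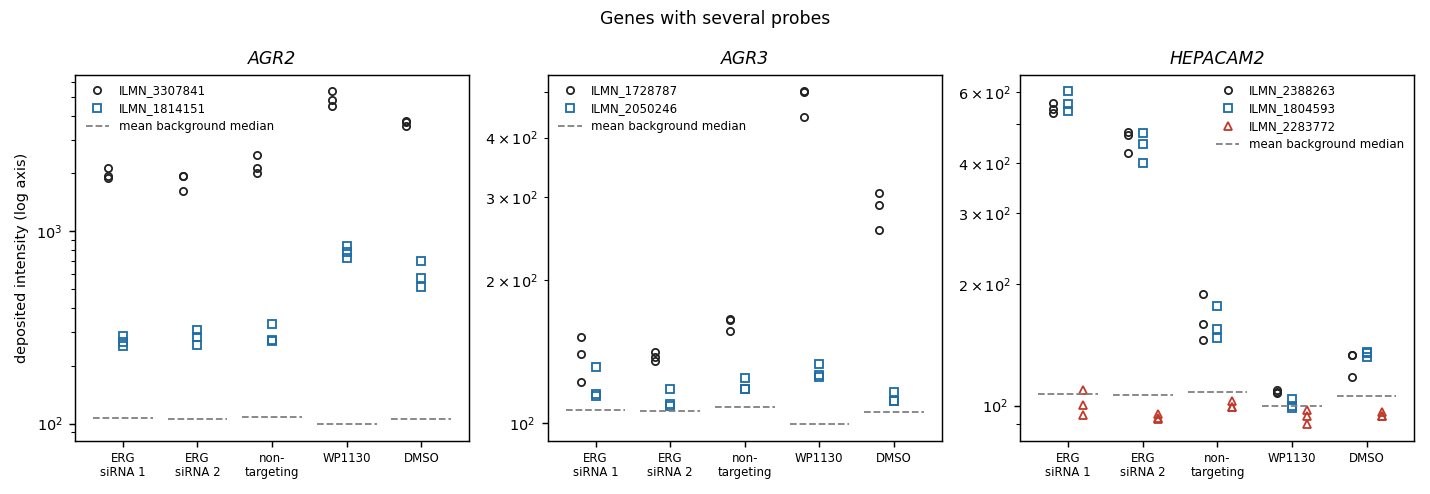
Deposited intensity (vertical log axis) of every probe of AGR2, AGR3 and HEPACAM2 on each array, with a dashed line at the mean background median of the group. Both AGR2 probes are highest with WP1130, 2 HEPACAM2 probes are highest with ERG siRNA, and the third HEPACAM2 probe stays near the background in all groups.

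SPINK1, the trypsin inhibitor, was higher with both treatments than with their controls. It read 8.90, 9.14 and 9.07 with WP1130, against 7.07, 7.16 and 7.24 with DMSO. The rise was 1.88 ± 0.11 on the log2 scale (SE), or 3.68-fold (limma adjusted p = 1.28e-09). Under knockdown, SPINK1 read 6.93, 7.15 and 7.41 with ERG siRNA 1 and 7.39, 7.33 and 7.26 with ERG siRNA 2, against 6.37, 6.27 and 6.57 with the non-targeting siRNA. The siRNA arrays lay above these controls by 0.84 ± 0.10 (SE), or 1.79-fold, without overlap. They did overlap the DMSO arrays in the case of ERG siRNA 1, and DMSO was itself 0.75 ± 0.11 above the non-targeting siRNA.

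The WP1130 test called 7 of the 8 genes, 5 up and 2 down, where 59.0% of the 12744 genes were called (21.9% up and 37.1% down). The arrays of 7 of the 8 genes did not overlap, against 63.6% of all genes. The sizes of the members' differences had a median of 1.12, beside 0.32 for all genes, on the log2 scale. The members were chosen with earlier results of these data known, which may bear on these sizes. The rise of TFF1, AGR2, AGR3 and SPINK1 and the fall of ATOH1 passed the threshold under every scaling tried, with smaller rises under no scaling of 0.42 for AGR2, 1.07 for AGR3, 1.10 for SPINK1 and 3.17 for TFF1. Of all WP1130 calls, 37.1% were up with quantile normalization, 15.7% with median scaling and 10.6% with no scaling between arrays. The median of all genes shifted by -0.12, -0.46 and -0.65 in these settings, and relative to it REG4 was 0.74, 0.57 and 0.57 higher and TFF3 0.34, 0.09 and 0.09 higher. HEPACAM2 was -0.22, 0.11 and 0.11 relative to that median, so that its sign against all genes turned with the scaling.

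With ERG siRNA, the mean of both siRNAs was past the threshold for 8 of 8 genes, beside 20.2% of all genes (10.7% higher and 9.58% lower). The groups did not overlap for 8 of 8 genes, against 21.6% of all. Since the genes were chosen with this contrast in view, nothing is read from these counts. Between DMSO and the non-targeting siRNA, 8 of 8 genes passed, 6 of them higher and 2 lower, beside 24.7% of all genes (13.1% higher and 11.6% lower), and 8 of 8 did not overlap, beside 42.1% of all. That comparison uses the non-targeting arrays of the ERG comparisons and is likewise a description.

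No member passed the test between ERG siRNA 2 and ERG siRNA 1 (0 of 8 with limma, beside 0.118% of all genes, of which 0.0628% were higher and 0.0549% lower). At an unadjusted p under 0.05 there were 2, TFF1 higher and HEPACAM2 lower with ERG siRNA 2. TFF1 differed by 0.48 (95% interval 0.11 to 0.85, limma adjusted p = 0.447), without overlap of the arrays. HEPACAM2 differed by -0.31 (95% interval -0.60 to -0.02, limma adjusted p = 0.548), also without overlap, where 14.3% of all genes had no overlap. For the other 6 genes the arrays of the siRNAs overlapped, and the 95% intervals of the difference ran over 0, such as -0.53 to 0.10 for ATOH1. An absence of calls does not show that the siRNAs acted alike on these genes.

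Goblet cell markers were detected only in part. Of 39 goblet and mucous cell genes on the array, 12 were detected on all 15 arrays and 9 on 0 arrays, among them SPINK4, ITLN1, CLCA4 and the secretory stress sensor ERN2. MUC2, the gel-forming mucin of goblet cells, was singled out after its values were seen: it was detected on 4 of 15 arrays and passed neither test (log2 difference of 0.17 for ERG siRNA and -0.11 for WP1130). The 8 genes are therefore described by name and not as a cell type.

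Of the 26 goblet and mucous cell genes tested, 6 rose and 2 fell with ERG siRNA (median log2 difference 0.07, all genes -0.00). Over all 12744 genes, 10.7% rose and 9.58% fell. SPDEF, an ETS factor that drives goblet cell maturation in mouse intestine, rose by 0.31 ± 0.06 (limma adjusted p = 0.00254), though this call was lost with no scaling. BCAS1 was detected on all 6 siRNA arrays and 0 non-targeting arrays and was at least 1.22-fold higher (limma adjusted p = 9.98e-05). The chloride cotransporter SLC12A2 rose by 0.56 ± 0.08, with 0.22 ± 0.09 for its other probe, and ZG16B rose by 0.35 ± 0.09. The sialyltransferase ST6GALNAC1 fell by 0.34 ± 0.10, which was not called under median scaling or without scaling, and FAM3D, the other gene that fell, was undetected on all arrays of these groups. No goblet gene fell (0 in place of 2) under median scaling, with no scaling or without non-targeting replicate 2 (limma; at an unadjusted p under 0.05, 2 were lower in the quantile-normalized data).

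With WP1130, 11 of these 26 genes rose and 5 fell (median 0.24, all genes -0.12), beside 21.9% and 37.1% of all genes. With no scaling between arrays 13 fell. The zinc-finger factor KLF4, which takes part in goblet cell differentiation in mouse colon, rose by 3.28 ± 0.15 on the log2 scale (limma adjusted p = 4.99e-11), and its other probe gave 3.98 ± 0.11. The mucin-type glycosyltransferase GCNT3, the factor FOXA2 and the membrane mucin MUC13 were detected on 0 DMSO arrays and on all 3 WP1130 arrays, and were at least 3.70-fold, 3.69-fold and 2.25-fold higher. The membrane mucin MUC12 rose by 1.64 ± 0.13. GCNT3, MUC13 and TFF2 were detected on 3 of 15 arrays and MUC12 on 4. These genes passed the filter only through the WP1130 arrays, where they were high. FCGBP and FAM3D, which rose by 0.85 and 0.81, were likewise detected on only 3 of 15 arrays each. The count of 11 and the median rest in part on all of these genes and are a description. SPDEF fell by 0.64 ± 0.07 (limma adjusted p = 1.99e-06) and FOXA1, a pioneer factor of luminal prostate and of goblet cells, fell by 0.71 ± 0.07.

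Regulators that act around ATOH1 were also measured. Of 17 secretory fate regulators tested, 6 rose and 2 fell with ERG siRNA (median 0.09), beside 10.7% and 9.58% of all genes. HES6, an inhibitor of HES1, rose by 1.31 ± 0.08 (limma adjusted p = 1.17e-08). It also rose with WP1130, by 0.91 ± 0.09 (limma adjusted p = 3.47e-07), but not past the threshold with no scaling between arrays (0.13, adjusted p = 0.327); this value was chosen after it was seen. GFI1, which acts below ATOH1 in mouse intestine, was detected on all 6 siRNA and 0 non-targeting arrays and was at least 1.12-fold higher. With 8 of 15 arrays in all, it passed the filter only through the siRNA arrays, so no test is given. The count of 6 that rose with ERG siRNA includes GFI1, and this count and its median are in part a description. The ETS factor EHF rose by 0.44 ± 0.08. The count of 2 that fell was 0 under median scaling, with no scaling and without ERG siRNA 2 replicate 2 (limma; 4 were lower at an unadjusted p under 0.05 with all arrays). With WP1130, 7 of the 17 rose and 4 fell (median 0.02), beside 21.9% and 37.1% of all genes. Under median scaling 7 fell, and 4 rose and 9 fell with no scaling between arrays. ID1 and ID2, which bind the E proteins that bHLH factors pair with, rose by 1.53 ± 0.08 and 1.66 ± 0.10, the E protein gene TCF3 fell by 0.92 ± 0.11, and the epithelial ETS factor ELF3 rose by 2.26 ± 0.09.

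In the Notch pathway, 0 of 25 genes rose and 9 fell with ERG siRNA (limma, median -0.08), beside 10.7% and 9.58% of all genes. At an unadjusted limma p under 0.05, 1 was higher. HES1, the Notch target known to repress ATOH1, fell by 0.60 ± 0.11 (limma adjusted p = 0.00138). Its probe was dim, with a mean of 5.06 under ERG siRNA and detection on 4 of the 6 siRNA arrays. The receptor gene NOTCH1 fell by 0.49 ± 0.07 (limma adjusted p = 0.000167). LFNG, which modifies Notch receptors, fell by 1.22 ± 0.12 with its main probe, against 0.08 ± 0.11 and -0.04 ± 0.09 with its other probes. The count of 9 was 4 without replicate 1 of the non-targeting siRNA. With WP1130, 9 of the 25 rose and 8 fell (median -0.06), beside 21.9% and 37.1% of all genes. HEY2, 1 of the 9 at 0.71, was detected on only 3 of 15 arrays, so the count is in part a description. Under median scaling or none, 5 rose and 15 fell. HES1 rose with WP1130 by 2.21 ± 0.13 (limma adjusted p = 1.07e-09), a value chosen after it was seen. The ligand DLL1 rose by 4.70 ± 0.15 (limma adjusted p = 4.12e-13) and NOTCH1 by 3.03 ± 0.08, beside the target HEY1 at 3.27 ± 0.10, whose other probe gave 0.91 ± 0.12. The ligand DLL3 fell by 0.89 ± 0.08 and RBPJ, the DNA-binding partner of Notch, by 0.66 ± 0.07.

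**Figure D4:**
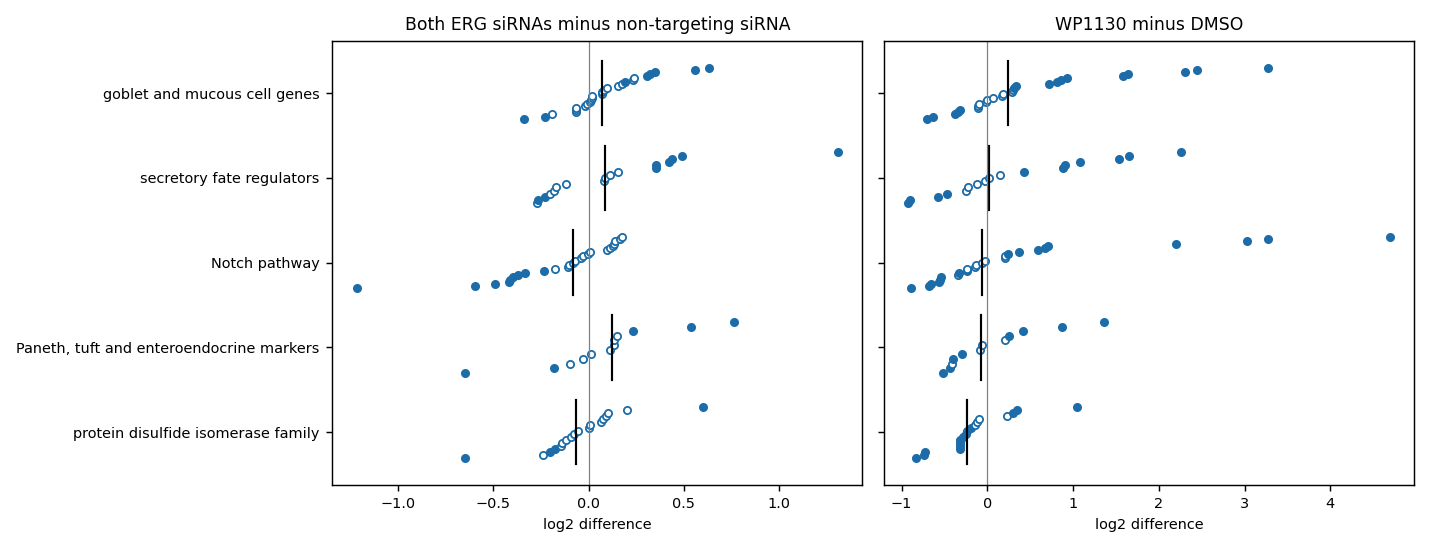
Log2 difference (horizontal axes) of each tested gene in 5 gene lists, left for both ERG siRNAs minus the non-targeting siRNA and right for WP1130 minus DMSO, with filled points for genes past the threshold and a vertical bar at the list's median. The Notch list has filled points only below 0 on the left, and DLL1 at 4.70 is the rightmost point on the right.

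Gene families of single members gave further values. A list of 18 tested genes held the protein disulfide isomerase family of AGR2 and AGR3, with ERO1A and ERO1B beside it. With WP1130, 3 rose and 11 fell (median -0.24), beside 21.9% and 37.1% of all genes. PDIA5 was down by 0.74 ± 0.08 and ERP44 by 0.83 ± 0.14 (-0.30 ± 0.17 in its other probe), while AGR2 and AGR3 rose. Only 1 of the 18, CASQ1, rose under median scaling or none. CASQ1 was detected on 4 arrays in all, 3 of WP1130 and 1 of DMSO. It thus passed the filter only through the WP1130 arrays, where it was high. The counts of 3 and 1 that rose with WP1130 are therefore in part a description. With ERG siRNA, 1 of the 18 rose and 3 fell (median -0.07), beside 10.7% and 9.58% of all genes. The 1 that rose was ERO1B (0.60 ± 0.13), and ERP27 fell most, by 0.65 ± 0.09. The count of 3 that fell was 5 without background correction. It was 1 under median scaling or none, and without non-targeting replicate 3, replicate 2 of either ERG siRNA, or the first ERG siRNA 2 array. Of a list of SPINK, REG and trypsin genes and relatives, 4 were tested: SPINK2, PRSS2, PRSS3 and IGSF8. No REG gene of the list passed the filter. The trypsinogen genes PRSS2 and PRSS3 rose with WP1130, by 1.37 ± 0.15 and 1.34 ± 0.10, where 21.9% of all genes rose. They are related genes whose probes may share signal. None of the 4 passed with ERG siRNA (limma, 0 of 4; 1 at an unadjusted p under 0.05).

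Markers of other cell types moved beside these genes, and their part in the results was not tested. Over all genes, 21.9% rose and 37.1% fell with WP1130, and 10.7% rose and 9.58% fell with ERG siRNA. For blood cells, 2 of 5 tested markers rose with WP1130 (CD68 by 1.71, and CD14 by 0.93 in 1 probe and 0.13 in another, with CD14 not called without scaling) while the leukocyte marker PTPRC was detected on 0 of 15 arrays. The summed level of that list ranged over 1184 to 1301 units with WP1130, against 596 to 613 with DMSO. With ERG siRNA, 0 of the 5 rose and 2 fell (limma; 0 higher at an unadjusted p under 0.05), with sums of 627 to 666 for ERG siRNA 1, 563 to 657 for ERG siRNA 2 and 683 to 745 for the non-targeting siRNA. For fibroblasts and endothelium, 1 of 4 rose and 1 fell in each comparison, with sums of 592 to 636 with WP1130 and 858 to 876 with DMSO, and COL1A2, COL3A1, PECAM1 and CDH5 were detected on 0 arrays. LUM fell by 0.84 and VWF rose by 0.63 with WP1130, the VWF call being lost with no scaling, and LUM rose by 0.92 and VWF fell by 0.33 with ERG siRNA. With ERG siRNA the fibroblast and endothelial sums were 677 to 759 for ERG siRNA 1, 666 to 738 for ERG siRNA 2 and 457 to 522 for the non-targeting siRNA.

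Intestinal cell types other than goblet cells gave small counts. Among all genes, 10.7% rose and 9.58% fell with ERG siRNA, and 21.9% rose and 37.1% fell with WP1130. Of 12 Paneth, tuft and enteroendocrine markers tested, 3 rose and 2 fell with ERG siRNA, led by GCG, the glucagon gene, at 0.77 ± 0.17, and RFX6, an enteroendocrine factor, at 0.54 ± 0.14 (0.22 ± 0.10 in its other probe). The GCG probe was dim, with means of 5.94 under ERG siRNA and 5.18 with the non-targeting siRNA, where 2 of 3 arrays detected it. DCLK1, a tuft cell marker, fell by 0.65 ± 0.12, while its other probe gave -0.13. With WP1130, 4 rose and 4 fell, and 2 rose under median scaling, or 2 rose and 7 fell with none. ITLN2, 1 of the 4 that rose, was detected on 3 of 15 arrays, those of WP1130, and passed the filter only through them. SCG5, another of the 4, was detected on 4 of 15 arrays. These counts of rises are therefore in part a description. The granule protein gene SCG2 rose by 1.36 ± 0.07, and the granule protein gene CHGB, RFX6 and the endocrine factor gene NKX2-2 fell by 0.43 ± 0.07, 0.52 ± 0.16 and 0.40 ± 0.07. Of 5 enterocyte markers tested, 2 rose and 1 fell with ERG siRNA, and 3 rose and 1 fell with WP1130. Sucrase-isomaltase (SI) rose by 0.43 ± 0.06 with ERG siRNA and fell by 1.04 ± 0.07 with WP1130. CA2, a carbonic anhydrase gene, was detected on 0 of 6 siRNA and 3 of 3 non-targeting arrays and was at least 1.32-fold lower with ERG siRNA (limma adjusted p = 0.00319), though its other probe gave -0.06, and it rose by 3.29 ± 0.16 with WP1130 (3.41 in its other probe). CDH17, an intestinal cadherin gene, rose by 0.37 ± 0.12 with ERG siRNA and by 0.62 ± 0.13 with WP1130, where the call was lost under median scaling and with none. CEACAM1, a cell adhesion gene, was at least 1.29-fold higher with WP1130 than with DMSO, where it was detected on 0 arrays. It was detected on 3 of 15 arrays, those of WP1130, and so passed the filter only through them.

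Of 12 prostate luminal markers tested, 10 rose and 0 fell with ERG siRNA (limma; median 0.45; 0 lower at an unadjusted p under 0.05), among them SLC45A3 at 1.43 ± 0.07 and TMPRSS2 at 1.32 ± 0.07. Their summed level was 37807 to 41467 units with ERG siRNA 1, 40841 to 44225 with ERG siRNA 2 and 26990 to 28110 with the non-targeting siRNA. With WP1130, 3 rose and 9 fell (median -0.47), with SLC45A3 down by 0.97 ± 0.08 and KRT19 up by 2.39 ± 0.09. The sums were 23019 to 25347 with WP1130 and 33851 to 37931 with DMSO. Among all genes, 10.7% rose and 9.58% fell with ERG siRNA, and 21.9% rose and 37.1% fell with WP1130.

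The genes whose values over the 15 arrays were most like those of ATOH1 were CDC42EP3 (Pearson r = 0.972), NPEPPS (0.970), PIGH (0.966), SLC12A2 (0.962) and IDH1 (0.959). Those most like HEPACAM2 were WNT5A (0.993), TNFRSF19 (0.978), SLC38A11 (0.977), TMPRSS2 (0.973) and IFNLR1 (0.970). These correlations describe 15 arrays that fall into 5 groups and share their processing, and no p is given. All 10 genes were higher with ERG siRNA, by 0.29 (NPEPPS) to 1.32 (TMPRSS2) on the log2 scale. The 5 genes like ATOH1 were lower with WP1130 than with DMSO, by log2 differences of -0.23 (NPEPPS) to -0.60 (CDC42EP3). SLC12A2 was among them, but its other probe gave -0.01 ± 0.10 (SE) with WP1130. For those like HEPACAM2 the WP1130 differences ran from -0.42 (TMPRSS2) to 0.04 (TNFRSF19). Likeness was taken over these same arrays, so the directions follow in part from the choice and are no further result.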

How the data were processed

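RNA of VCaP cells was measured on 15 Illumina HumanHT-12 v4 arrays, 3 for each of 5 groups, assigned by the treatment and title labels. Per the file headers, the deposited non-normalized table holds an intensity and a detection p-value per probe and array. No background subtraction or scaling was visible in these deposited intensities. The submitters' processing notes name GenomeStudio but give it no version or role. The authors' processed table, of deposited intensities whose sorted values follow 1 common distribution, served as an alternative, with the method of background correction not stated.

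Intensities were background-corrected (normexp, offset 16, negative controls inferred from detection p), quantile normalized and log2-transformed (neqc, limma 3.58.1, R 4.3.3). Probes with a detection p under 0.05 on at least 3 of 15 arrays were kept (23281 of 47322). A single symbol was annotated for 30113 probes, more than 1 for 8, and 17201 were absent from the annotation used. The probe with the highest mean stood for each of 12744 genes. A 5-group model was fitted to all arrays (10 residual degrees of freedom) with moderated two-sided tests (eBayes) and Benjamini-Hochberg adjustment over all genes, at a threshold of 0.05. The procedure was tested on simulated data. Precision is limited by the small number of arrays.

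The members and gene lists were chosen with earlier results of these data known. The rule for named genes took all members, up to 6 genes each way of the goblet list and 3 of other lists among those past the threshold, and the 5 genes most like ATOH1 and HEPACAM2. Alternatives covered background correction, scaling, input values, filter, model, replicate block, probe choice, threshold and leaving out each array. Promoter windows came from RefSeq (GRCh38.p14). No genome was used.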

Additional observations from a re-analysis of the deposited data

How the results depend on the processing

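Across 12 alternatives and the omission of each array, the members' ERG siRNA differences kept their direction, and their sizes ranged widely for the dim probes: 0.71 to 2.46 for ATOH1, 1.56 to 2.99 for HEPACAM2, -1.84 to -0.36 for REG4, 0.41 to 1.75 for TFF1 and -0.97 to -0.21 for AGR3, with the smallest sizes without background correction and the largest with the authors' processed values. Leaving out 1 array gave 6 to 8 members past the threshold for ERG siRNA, 6 to 7 for WP1130 and 0 between the siRNAs. The count over all genes was 15 between the siRNAs, and became 58 without background correction, 36 with trend and robust options, 6 with median scaling, 3 with no scaling, 1 with only the groups compared and 9 to 14 without 1 array. For ERG siRNA it was 2580, and 1402 with no scaling, 1480 at an adjusted p under 0.01 and 1830 to 2489 without 1 array. For WP1130 it was 7519, and 11945 with every probe on its own, where more features are tested, and 6857 to 7314 without 1 array. WP1130 sizes ranged over the settings between 0.42 and 1.12 for AGR2, 1.07 and 1.99 for AGR3, 1.10 and 2.03 for SPINK1, 2.61 and 4.36 for TFF1 and -2.64 and -0.44 for ATOH1. Reversed WP1130 differences were those of TFF3, called as falls (-0.37, adjusted p = 0.00595, with median scaling; -0.56, 0.000187, with none), and REG4 (-0.0861 with none). The WP1130 call for HEPACAM2 was also lost with no filter (adjusted p = 0.0663), with only the groups compared (0.0512), with every probe (0.0530), and without DMSO replicate 2 (0.147) or 3 (0.168) or WP1130 replicate 1 (0.130), 2 (0.0533) or 3 (0.0724). TFF3 passed as a rise for WP1130 without background correction (0.0389), with only the groups compared (0.0346) and with trend and robust options (0.0275). Between the siRNAs, no difference of a member passed under these alternatives, and signs turned for AGR3 (-0.0727 with the mean of probes, -0.208 with its other probe, and -0.198 to 0.241 without 1 array), AGR2 (0.0121 with the mean of probes, 0.124 with its other probe) and REG4 (-0.0534 to 0.141 without 1 array). The cause of these shifts was not tested. Same-numbered arrays deviated together with correlations of -0.02 to 0.14, over 0.1 in 3 of 12 pairs, so the numbers were not taken to pair arrays; with a replicate block, 8 members (TFF3 at adjusted p = 0.0478) and 7522 genes passed for WP1130, and 7 members for ERG siRNA. Of 858 repeated counts over the gene lists, 755 stayed within 1.5 times. Dim probes near background limit the sizes given for ATOH1, AGR3, REG4 under siRNA and HEPACAM2 outside ERG siRNA.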
